A study of Drosophila melanogaster with 12 samples.

Results

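Transcript levels of the cytochrome P450 genes of Drosophila melanogaster were read in 2 systems depleted of barc, the gene of the splicing cofactor barricade (Tat-SF1 in humans). A gene was a member if its symbol in the deposited tables was Cyp followed by a family number, a subfamily letter and a gene number. This rule took 81 of the 14210 genes, and no measured value entered it. P450 genes that carry other symbols (phm, dib, sad, shd, spo and spok of ecdysone synthesis) fell outside it and were read as a separate list. Type I neuroblasts, stem cells that build the fly brain, came by flow cytometry from brains of late larvae (the last instar) of crosses reared at 29 °C. All of these larvae carried dicer2, asense-Gal4 and UAS-CD8::GFP; the control cross brought in the empty landing site VIE-260B (2 libraries) and the other cross a barc RNAi construct of the VDRC stock collection (2 libraries). Only 1 RNAi line was used, driven in cells with asense-Gal4 activity. S2 cells, a line of embryonic origin with features of blood cells, grew in Schneider's medium with 10% heat-inactivated serum and took up double-stranded RNA for 7 days, against mCherry in the controls (4 libraries) or against barc (4 libraries). All libraries held polyadenylated RNA.

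Cytochrome P450 enzymes are heme-containing monooxygenases. Most sit in the endoplasmic reticulum and receive electrons from the reductase Cpr, with cytochrome b5 as a second donor; a smaller clan sits in mitochondria and is served by a ferredoxin and its reductase (dare in flies). In insects they metabolise plant toxins, insecticides, fatty acids and hormones, and many are induced by foreign compounds or raised in resistant strains. The richest sites of the detoxifying enzymes are the fat body, the midgut and the Malpighian tubules; brain stem cells are not known as such a site.

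The 81 members fell into 4 clans, with 36 genes in CYP3, 32 in CYP4, 9 in the mitochondrial clan and 4 in CYP2. Arm 2R held 34 of them, 3R 15, X 14, 2L 12 and 3L 6. Neighbours no more than 10000 bases apart formed 15 tandem groups with 42 members. Every member was accounted for as follows. A mean of at least 1 FPKM (fragments per kilobase and per 1000000 mapped fragments) over the libraries of a system was reached by 8 members in neuroblasts, by 36 in S2 cells and by 6 in both, so 38 were tested in at least 1 system. Of the others, 33 members stayed under 1 FPKM in every library and 10 reached it in some libraries but not in the mean; 4 of the 81 (Cyp313a5, Cyp313a2, Cyp6a18 and Cyp308a1) were listed at 0 throughout. The members nearest the threshold in neuroblasts were Cyp6d4 (mean 1.14 FPKM) and Cyp12a4 (1.28) above it, and Cyp4d14 (0.889) and Cyp6g2 (0.882) below it. In S2 cells they were Cyp28d2 (1.05 FPKM) and Cyp317a1 (1.15) above, and Cyp6a19 (0.955) and Cyp6d5 (0.935) below.

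The targeted transcript was lower in every depleted library. In neuroblasts barc measured 86.4 and 94.0 FPKM without RNAi and 15.1 and 17.9 with it, and in S2 cells 20.9 to 23.9 with mCherry and 3.02 to 7.32 with barc double-stranded RNA. Fragment numbers implied by the deposited confidence intervals (in M, that is units of 1000000) were 27.1 M and 30.4 M for control and 42.0 M and 48.7 M for RNAi neuroblasts, 18.8 to 28.6 M for control and 14.6 to 18.3 M for depleted S2 cells. The neuroblast markers ase, wor, dpn, mira and insc summed to 1389 and 1419 FPKM in the neuroblast controls and to 1280 and 1298 after RNAi. They were thus abundant in all 4 libraries, but both RNAi sums lay below both control sums, and of the 5 markers dpn (log2 fold change -0.37, limma adjusted p 0.00076) and insc (-0.27, 0.0035) fell. The S2 libraries held the blood-cell marker crq at 314.7 ± 32.5 FPKM in controls (SD, n = 4). In sorted or cultured cells alike, more RNA per cell and more cells that make it cannot be told apart.

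Control neuroblasts held few P450 transcripts. Summed over the 81 members, the level was 24.7 and 23.4 FPKM in the 2 controls and 83.9 and 68.2 after barc RNAi, and the number of members at 1 FPKM or more went from 4 in each control to 10 in each RNAi library. The RNAi sums did not overlap the control sums. Most of the gain in the sum came from Cyp4p2 (0.44 and 0.43 FPKM, then 38.6 and 28.1) and its neighbour Cyp4p1 (0.08 and 0.09, then 8.58 and 7.38). In S2 cells the sum was 327, 342, 505 and 482 FPKM in control replicates 1 to 4 and 491, 491, 484 and 495 after barc depletion. Those S2 groups overlapped, because control replicates 3 and 4 stood as high as the depleted cells.

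In neuroblasts 6 of the 8 tested members rose after barc RNAi and none fell. Of all 6732 genes tested there, 42.9% were called at an adjusted p under 0.05 (limma, Benjamini-Hochberg over all tested genes) and 19.1% were called higher. The median log2 fold change was 0.56 over the 8 members and -0.02 over all tested genes. Log2 fold changes are given for FPKM + 1, barc depletion minus control, which understates the change of weakly expressed genes. Of the 8, 4 (Cyp4p2, Cyp4p1, Cyp12a4 and Cyp6d4) reached the mean of 1 FPKM only through the RNAi libraries and so had to differ. The filter thus favoured a rise, and the members' count and median are not to be read against those of all genes. Of the 4 with both group means at 1 FPKM or more, 2 were called. Log2 fold changes of these 4 were 0.58 (Cyp12c1), 0.38 (Cyp9f2), 0.13 (Cyp6u1) and 0.11 (Cyp4d2). In all but Cyp4d2 the 2 RNAi libraries lay above both controls, which is 7 of 8 members. The share of all tested genes without overlap was not taken, so this count shows nothing particular to the members. In a limma fit over all 4 groups of both systems only Cyp4p2 and Cyp4p1 remained called in neuroblasts. That fit has 1 spread per gene for both systems, so the spread among S2 libraries enters it. For Cyp12a4 the SE of the neuroblast change was 0.17 in the neuroblast fit and 0.75 in the fit over all groups.

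The change was led by Cyp4p2 (FBgn0033395), Cyp4p1 (FBgn0015037) and Cyp4p3 (FBgn0033397), CYP4-clan genes that follow each other on the plus strand of arm 2R. The tables place them at 5125035 to 5127336, 5127548 to 5129644 and 5129846 to 5131915, in coordinates of a build whose name is not in the sources used here. The gaps between neighbours are 211 and 201 bases. Cyp4p2 measured 0.44 and 0.43 FPKM in the controls and 38.6 and 28.1 after RNAi, which made it the most abundant member in the depleted neuroblasts. Its mean was 77.0 times the control mean, and on the log2 scale the change was 4.57 ± 0.14 (SE, limma adjusted p 2.7e-07). The fragments behind these values numbered 23 and 20 in the controls and 3416 and 2102 after RNAi.

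Cyp4p1 measured 0.08 and 0.09 FPKM in the controls and 8.58 and 7.38 after RNAi. Its log2 fold change was 3.05 (SE 0.13, limma adjusted p 1.5e-06), and the 2 groups stood far apart. Cyp4p3, the gene farthest along, measured 0 and 0.02 FPKM in the controls and 1.65 and 1.25 after RNAi. Its mean of 0.73 FPKM kept it out of the test; its controls rest on 1 fragment, and without the filter on level its adjusted p was 0.0038 (limma). After RNAi the level was thus highest for Cyp4p2 and lowest for Cyp4p3, in the order in which the genes lie on the strand. In the authors' deposited table the log2 ratios were 6.32 for Cyp4p2, 7.09 for Cyp4p1 and 7.25 for Cyp4p3.

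All 3 genes lie within hig (hikaru genki, a secreted protein of synapses), which runs on the opposite strand. The libraries were made by a strand-marking protocol, but whether the counting used strand is not stated in what was available, so reads of hig and of these genes may not have been told apart. The change of hig had the other sign, from 53.4 ± 1.48 to 28.9 ± 3.36 FPKM (SD, n = 2 per group), with a log2 fold change of -0.87 (limma adjusted p 8.4e-05). In S2 cells hig was at 0.08 and 0.14 FPKM in the 2 groups. The Cyp4p genes were low there: Cyp4p2 was at 0.02 to 0.07 FPKM in controls and 0.05 to 0.13 after depletion, and Cyp4p1 at 0.37 to 0.89 and 0.20 to 0.80. For both genes the S2 groups overlapped. Cyp4p3 was at 0.14 to 0.33 FPKM in S2 controls and at 0.57 to 0.82 after depletion; these groups did not overlap, and its log2 fold change without the filter was 0.41 (limma adjusted p 0.0076).

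**Figure D1:**
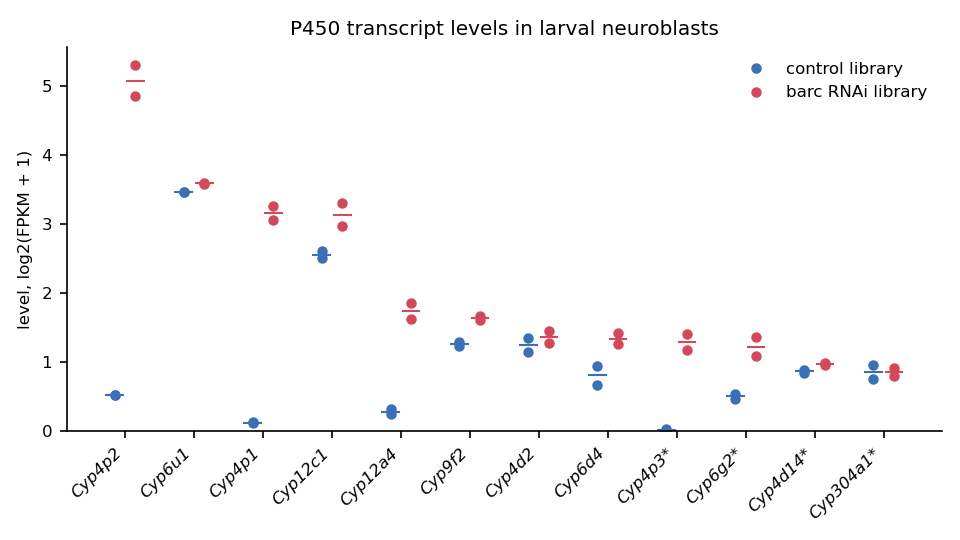
Levels of P450 genes in larval neuroblasts on a log2(FPKM + 1) axis, for the 8 tested members and the 4 next highest (asterisk: mean under 1 FPKM, not tested). Each point is 1 library, each bar the mean of 2; both RNAi points of Cyp4p2, Cyp4p1, Cyp4p3 and Cyp12a4 stand far above the control points, while those of Cyp6u1 and Cyp4d2 lie close to them.

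Both mitochondrial members tested in neuroblasts rose. Cyp12a4, whose overexpression is known to confer resistance to the insecticide lufenuron, went from 0.25 and 0.18 FPKM to 2.62 and 2.07, or by 1.46 ± 0.17 on the log2 scale (SE, limma adjusted p 0.00027). Its control values rest on 14 and 9 fragments and its RNAi values on 241 and 162. Cyp12a5, its neighbour 458 bases away, was at 0 in both controls and at 0.05 and 0 after RNAi. Cyp12c1 was already among the most abundant members in control neuroblasts, at 4.68 and 5.11 FPKM, and reached 8.89 and 6.87. Its log2 fold change was 0.58 (SE 0.12, limma adjusted p 0.0047).

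Among the CYP3-clan members, Cyp6d4 went from 0.93 and 0.58 FPKM to 1.67 and 1.39 (log2 fold change 0.53, limma adjusted p 0.034), and Cyp9f2 from 1.34 and 1.45 to 2.17 and 2.05 (0.38, limma adjusted p 0.04998). The groups did not overlap for either gene, but both calls were lost without control 1, without control 2 or without RNAi library 1, with limma adjusted p between 0.054 and 0.215 for Cyp6d4 and between 0.082 and 0.215 for Cyp9f2. They were also lost with quantile normalisation (0.090 and 0.11). With the replicate number as a block the call of Cyp9f2 was lost too (limma adjusted p 0.052). Cyp6u1, the most abundant member in control neuroblasts, measured 10.06 in both controls and 11.12 and 11.03 after RNAi. Its log2 fold change of 0.13 missed the threshold (limma adjusted p 0.18). Cyp4d2 measured 1.54 and 1.22 FPKM in the controls and 1.41 and 1.74 after RNAi, with overlapping groups (limma adjusted p 0.58). The fifth most abundant member in the controls, Cyp4d14, measured 0.79 and 0.85 FPKM and 0.94 and 0.97 after RNAi. Below the filter, Cyp6g2, which gives insecticide resistance when overexpressed, went from 0.46 and 0.38 to 1.57 and 1.12 FPKM; its log2 fold change without the filter was 0.72 (limma adjusted p 0.016).

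Markers of other cells moved with these changes. Of 4 neuron markers elav, the only one tested, rose (log2 fold change 0.31, limma adjusted p 0.0035). The list summed to 23.3 and 24.2 FPKM in controls and 29.2 and 29.8 after RNAi, nearly all of it elav. The other neuron markers were low, with lower means after RNAi (n-syb 0.40 and 0.37 FPKM, brp 0.14 and 0.12, Syt1 0.18 and 0.12). Of the hemocyte markers crq, the only one tested, fell (-0.19, limma adjusted p 0.039), the sum going from 35.3 and 35.4 FPKM to 29.8 and 32.5. That sum was nearly all crq. Hml (0.08 and 0.20 FPKM) and Pxn (0.14 and 0.22) were low with higher means after RNAi, and He and srp were at or under 0.04. Of 4 glial markers, the 2 that were tested, Eaat1 and nrv2, both fell; the list summed to 198 and 203 FPKM in controls and 120 and 135 after RNAi, with repo at 0.08 and 0.17. Of 9 fat body markers ppl fell, Lsp1gamma did not pass the test, and Lsp1alpha, Fbp2 and Yp1 were at 0 in every neuroblast library. The list summed to 136 and 138 FPKM in controls and 121 and 122 after RNAi, nearly all of it ppl (means 133 and 118). Means were higher after RNAi for Lsp1gamma (2.88 and 2.98 FPKM), Lsp2 (0 and 0.03), Lsp1beta (0.02 and 0.05) and Fbp1 (0.01 and 0.02). That of Rfabg was lower (0.50 and 0.33 FPKM). The 5 midgut markers summed to between 0.32 and 0.78 FPKM in controls and between 0.57 and 1.66 after RNAi, with Jon65Aiv, alphaTry and betaTry at 0 throughout, and the 4 Malpighian tubule markers to 0.04 in both controls and to 0.29 and 0.37 after RNAi, with byn at 0. The part of these cells in the P450 changes was not tested.

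In S2 cells 13 of the 36 tested members were called: 10 rose and 3 fell. Of all 7603 genes tested there, 26.7% were called, 11.5% higher and 15.2% lower (limma). The median log2 fold change was 0.07 over the 36 members and -0.06 over all tested genes. Of the 36, 4 passed the filter only through the depleted cells (Cyp6w1, Cyp317a1, Cyp4d20 and Cyp304a1) and 2 only through the controls (Cyp28d2 and Cyp4g1); of the 30 with both group means at 1 FPKM or more, 10 were called. The depleted and control libraries did not overlap in 16 of 36 members. Here too the share over all tested genes was not taken, and the count is only a description.

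The S2 libraries were not alike within a group. Replicates 1 and 2 carry the first number 1 in the sample descriptions and replicates 3 and 4 the number 2; the labels do not say what it means. In 14 of the 36 tested members replicates 1 and 2 did not overlap replicates 3 and 4 across both treatments, and 11 of these 14 were higher in replicates 3 and 4. Cyp4ac2 stood at a mean of 0.15 FPKM in control replicates 1 and 2 and of 7.01 in 3 and 4, Cyp12a5 at 0.28 and 4.43, Cyp12a4 at 1.47 and 7.86, and Cyp6a23 at 7.77 and 21.7. With the replicate number as a block, 20 members were called, 13 higher and 7 lower. Within replicates 1 and 2 alone 25 were called (17 higher, 8 lower), and within replicates 3 and 4 alone 12 (8 higher, 4 lower). All 13 members called over all replicates had the same sign in both pairs of replicates, as did 28 of the 36 tested. Shares of all tested genes were not taken for the counts in this paragraph. They are therefore not to be read as particular to the P450 genes.

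**Figure D2:**
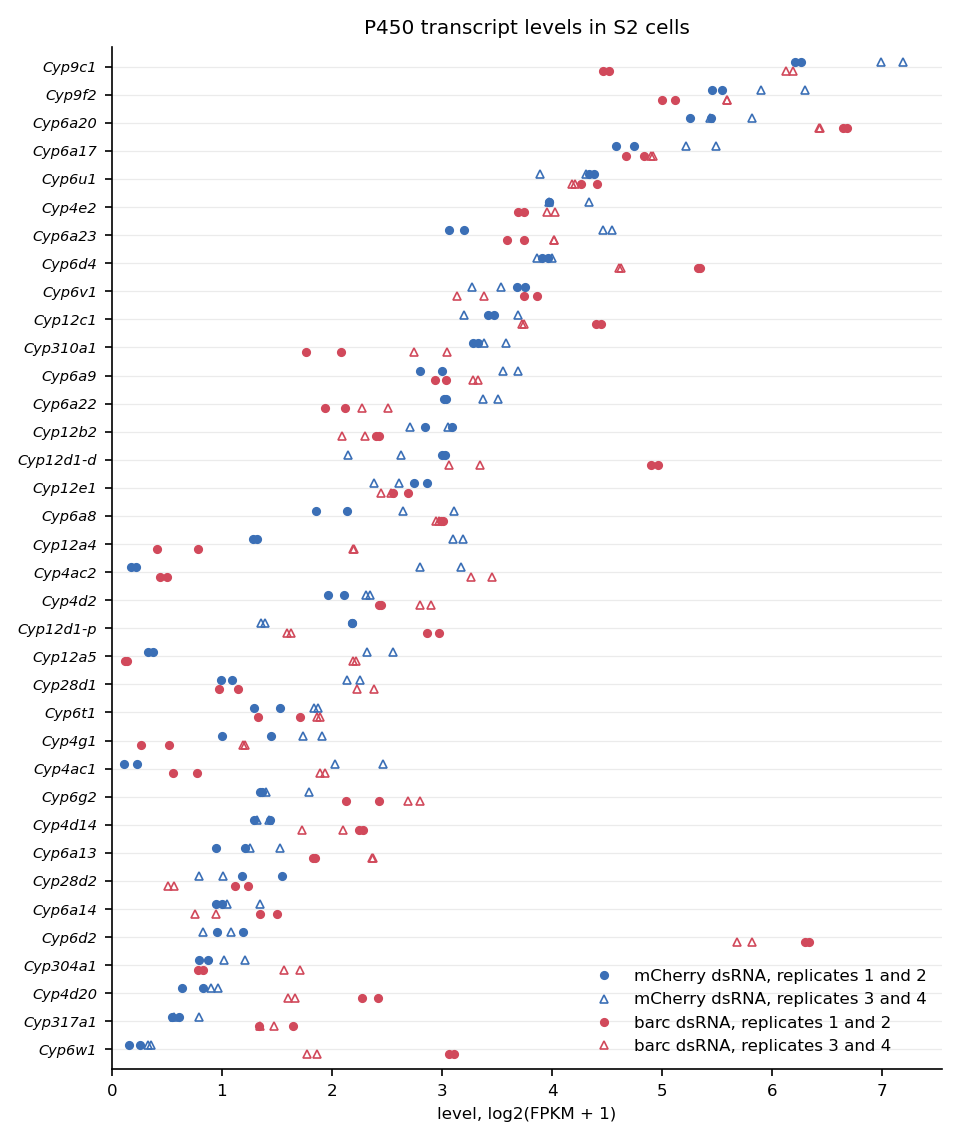
Levels of the 36 tested P450 genes in S2 cells on a log2(FPKM + 1) axis, ordered by control mean. Each symbol is 1 library; filled circles are replicates 1 and 2 and open triangles replicates 3 and 4 of the mCherry (blue) and barc (red) treatments. Cyp6d2 and Cyp6w1 separate by treatment, and Cyp4ac2, Cyp12a5 and Cyp12a4 by replicate pair.

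The largest change was that of Cyp6d2 (FBgn0034756, arm 2R, 18540078 to 18542032 in the tables' coordinates, minus strand), a CYP3-clan gene linked to the sensitivity of flies to camptothecin. It measured 1.28, 0.94, 0.77 and 1.12 FPKM in control replicates 1 to 4 and 77.9, 79.6, 50.1 and 55.3 in depleted replicates 1 to 4. Every depleted library was far above every control, and the mean rose 63.8-fold. Its log2 fold change was 5.02 (SE 0.18, limma adjusted p 3.9e-06). In the depleted cells its mean of 65.7 ± 15.2 FPKM (SD, n = 4) was above that of every member but Cyp6a20.

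Cyp6w1, a gene raised in a DDT-resistant strain, measured 0.11, 0.19, 0.28 and 0.26 FPKM in the controls and 7.61, 7.35, 2.42 and 2.65 after depletion. The depleted libraries were all higher, with replicates 1 and 2 above 3 and 4; the log2 fold change was 2.18 (SE 0.34, limma adjusted p 0.0035). Cyp4d20 measured 0.55, 0.78, 0.95 and 0.86 FPKM and then 4.34, 3.84, 2.18 and 2.03, again without overlap (log2 fold change 1.16, SE 0.23, limma adjusted p 0.0094). It lies within CG33232, which itself rose by a log2 fold change of 0.70.

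Cyp6a20, a gene with a known part in male aggression, was abundant before depletion, at 37.2, 42.6, 42.3 and 55.3 FPKM, and reached 98.9, 101.8, 85.3 and 84.7. The groups were well apart, and the log2 fold change was 1.06 (SE 0.14, limma adjusted p 0.0018). Cyp6d4 measured 14.1, 14.6, 15.0 and 13.6 FPKM in the controls and 39.2, 39.6, 23.7 and 23.4 after depletion, with replicates 1 and 2 the higher pair (1.04, SE 0.19, limma adjusted p 0.0069). Cyp6g2 measured 1.58, 1.54, 1.64 and 2.46 FPKM and then 4.39, 3.38, 5.48 and 5.95, with replicates 3 and 4 the higher pair (1.04, SE 0.20, limma adjusted p 0.0074). Its neighbour Cyp6g1, the DDT resistance gene, overlaps its end on the other strand and stayed at 0.02 to 0.13 FPKM in controls and 0.12 to 0.35 after depletion.

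The other 4 members that rose had log2 fold changes from 0.63 to 0.87: Cyp12c1 (0.63, limma adjusted p 0.048), Cyp4d14 (0.72), Cyp317a1 (0.82) and Cyp6a13 (0.87). Cyp12c1, which went from 10.1, 9.70, 11.9 and 8.21 FPKM to 20.8, 20.2, 12.4 and 12.3, was called in only 2 of the 8 fits that left out 1 library. The calls of Cyp4d14 (limma adjusted p 0.018) and Cyp6a13 (0.018) were lost without control replicate 2, and that of Cyp4d14 also without depleted replicate 1 or 2. Cyp317a1 was called in all 8 of these fits. With quantile normalisation the calls of Cyp12c1, Cyp4d14, Cyp317a1 and Cyp4d20 were lost (limma adjusted p 0.062, 0.13, 0.089 and 0.052).

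The 3 members that fell were Cyp6a22, Cyp310a1 and Cyp12b2. Cyp6a22 measured 7.11, 7.21, 10.4 and 9.37 FPKM in the controls and 2.84, 3.33, 3.83 and 4.69 after depletion, without overlap (log2 fold change -1.03, SE 0.18, limma adjusted p 0.0052). Cyp310a1 went from a mean of 9.54 ± 1.01 to 4.65 ± 2.23 FPKM (SD, n = 4 per group; log2 fold change -0.98, limma adjusted p 0.027), and its call was lost in 5 of the 8 fits that left out 1 library. It lies within MESR3 on the opposite strand, which fell by 0.39 on the log2 scale. The mitochondrial Cyp12b2 went from 6.64 ± 0.94 to 3.96 ± 0.51 FPKM (SD, n = 4 per group; log2 fold change -0.62, limma adjusted p 0.016), a call lost without control replicate 2. The gene on its other strand, CG42351, rose from 11.1 to 30.0 FPKM.

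The most abundant members of control S2 cells were Cyp9c1, Cyp9f2, Cyp6a20, Cyp6a17 and Cyp6u1. Cyp9c1 measured 75.6, 72.8, 145 and 126 FPKM in the controls and 21.1, 21.9, 72.1 and 68.8 after depletion, so that every depleted library lay below every control. Its log2 fold change of -1.34 (SE 0.45) missed the threshold as designed (limma adjusted p 0.058) and passed it with the replicate block (0.0037). Cyp9f2 measured 42.8, 45.6, 77.9 and 58.8 FPKM and then 31.1, 33.7, 47.1 and 47.3; the groups overlapped, and its log2 fold change of -0.47 had a limma adjusted p of 0.13, or 0.019 with the block. Cyp6a17, known for a part in temperature preference, measured 23.01, 25.8, 36.3 and 43.8 FPKM and then 27.6, 24.6, 28.8 and 29.2, and Cyp6u1 19.2, 19.9, 18.9 and 13.8 and then 18.2, 20.2, 17.2 and 17.4. Both pairs of groups overlapped, and neither gene passed the test.

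The block brought in 5 further members. Cyp12d1-d and Cyp12d1-p, near-identical mitochondrial copies induced by foreign compounds, had log2 fold changes of 1.37 and 0.49 with limma adjusted p of 0.0070 and 0.049 under the block, against 0.054 and 0.37 without it. Cyp12d1-d measured 7.14, 7.02, 3.42 and 5.18 FPKM in the controls and 30.3, 28.9, 7.37 and 9.19 after depletion. Reads of these copies could be split between them in the counting, so their separate values are uncertain. Cyp4d2 had a log2 fold change of 0.46 (0.024 with the block, 0.070 without). Cyp12a4 had one of -0.83 (0.0068 with the block, 0.32 without) and Cyp4g1, the hydrocarbon-forming enzyme of oenocytes, one of -0.73 (0.012 with the block, 0.10 without). The 16 members called neither way had log2 fold changes from -0.27 to 0.55.

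**Figure D3:**
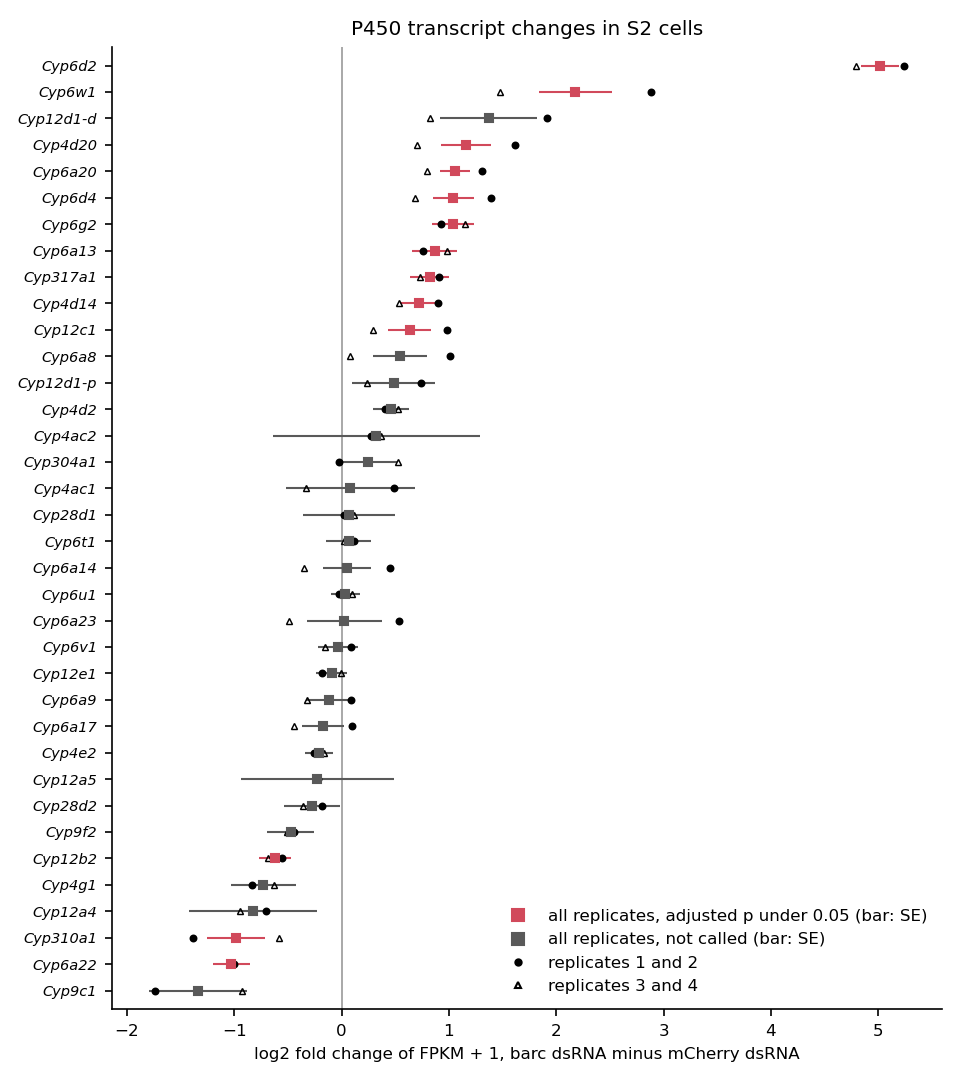
Log2 fold change of FPKM + 1 (barc minus mCherry double-stranded RNA) of the 36 tested P450 genes in S2 cells. Squares with SE bars are the fit over all replicates, red where the adjusted p was under 0.05; black circles and open triangles are the changes within replicates 1 and 2 and within replicates 3 and 4. For Cyp6w1, Cyp4d20, Cyp6d4 and Cyp9c1 the plotted change was larger in replicates 1 and 2, a difference that was not tested.

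By clan, 7 of 21 tested CYP3 members rose in S2 cells and 2 fell, and 2 of 7 CYP4 members rose and none fell. Of 7 mitochondrial members 1 rose and 1 fell, and the 1 tested CYP2 member, Cyp304a1, was not called. Over all genes tested in S2 cells 11.5% were called higher and 15.2% lower (limma). Cyp6w1, Cyp317a1 and Cyp4d20, counted here as rising, passed the filter only through the depleted cells. No difference between clans was tested. Because barricade is a splicing factor, the introns annotated in release 6 of the fly genome were counted for each member. The members that rose in S2 cells had a median of 1 intron (0 to 4), those that fell 5 (1 to 5) and those not called 3 (0 to 6). In neuroblasts the 6 that rose had a median of 3 (1 to 7) and the 2 not called 2 and 4. These are descriptions of small numbers of genes, and no relation to introns was tested.

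The 3 Cyp4p genes lay above their controls together in neuroblasts, as given above, but the members of the largest tandem group differed in S2 cells. In the group of 8 genes on arm 2R that runs from Cyp6a22 to Cyp6a8, Cyp6a22 fell and Cyp6a20 rose in S2 cells, while Cyp6a17, Cyp6a23, Cyp6a9 and Cyp6a8 were not called. Cyp6a21, under the filter at 0.22 to 0.57 FPKM in controls and 0.63 to 0.75 after depletion, had a log2 fold change of 0.28 without the filter (limma adjusted p 0.046), and its groups did not overlap. Cyp6a19, under the filter at 0.11 to 0.24 FPKM in controls and 1.60 to 1.99 after depletion, had a log2 fold change of 1.24 without the filter (limma adjusted p 0.00037). It overlaps Cyp6a9 on the opposite strand, and Cyp6a9 measured 8.91 ± 2.87 and 7.91 ± 1.16 FPKM in the 2 groups (SD, n = 4). The last of the group, Cyp6a8, a fatty-acid hydroxylase induced by foreign compounds, measured 2.62, 3.40, 7.63 and 5.25 FPKM and then 7.08, 6.97, 6.87 and 6.69; its groups overlapped (log2 fold change 0.55, limma adjusted p 0.13). Cyp6a17 and Cyp6a23 are close paralogs, and reads could be split between them. In neuroblasts all 8 genes of this group were under 0.6 FPKM in every library.

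**Figure D4:**
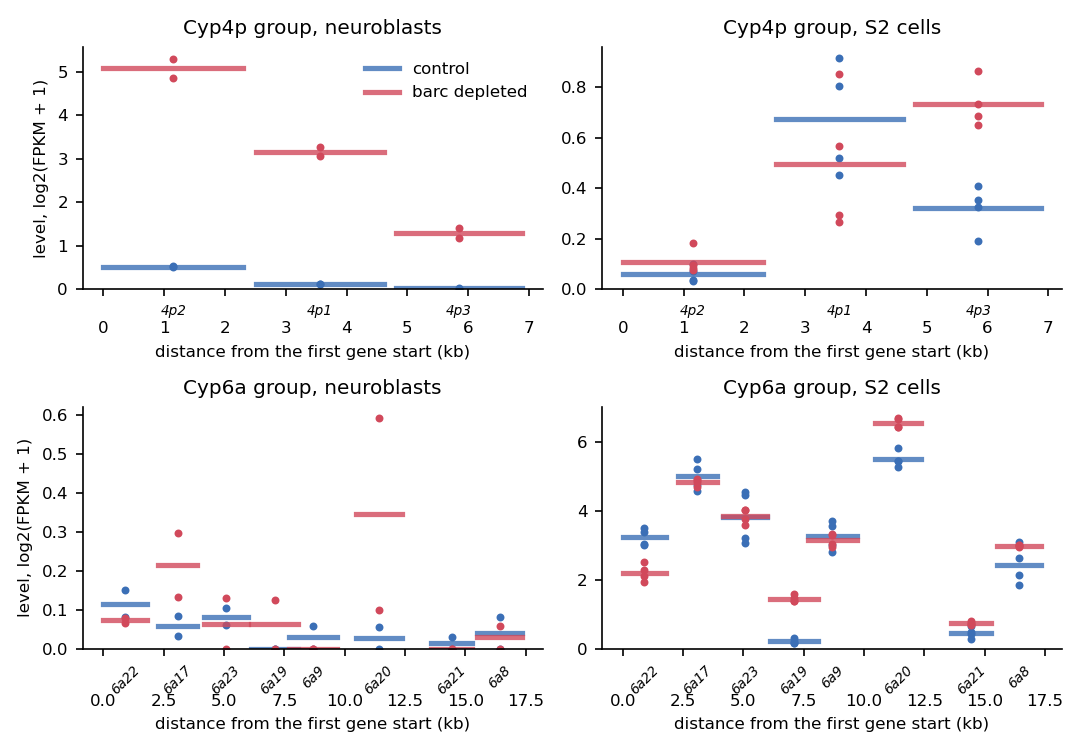
Levels, as log2(FPKM + 1), of the Cyp4p and Cyp6a tandem groups against the distance from the first gene start in kb, in neuroblasts (left) and S2 cells (right); the vertical axes differ between panels. Points are libraries and horizontal bars the group means over each gene's extent, blue for controls and red after barc depletion. The Cyp4p genes separate in neuroblasts with levels falling along the group, and in the Cyp6a group Cyp6a22 and Cyp6a20 move in opposite directions in S2 cells.

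Members known from hormone metabolism and the cuticle were at low levels. Cyp18a1, which inactivates ecdysteroids, stayed at or under 0.44 FPKM in every library, Cyp6t3, a gene of ecdysteroid synthesis, at or under 0.07, and the cuticle genes Cyp301a1 and Cyp303a1 at or under 0.08. Cyp4g15, the brain paralog of Cyp4g1, was at 0.06 to 0.12 FPKM in the neuroblast libraries. Of the 6 ecdysteroid P450 genes with other symbols, none reached a mean of 1 FPKM in either system; shd, which makes 20-hydroxyecdysone, came closest at 0.28 ± 0.07 in S2 controls and 1.12 ± 0.59 after depletion (SD, n = 4). Cyp4e3, a gene of permethrin tolerance, went from between 0.21 and 0.39 FPKM to between 0.50 and 1.94 in S2 cells.

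The change differed between the systems for 5 of the 38 members tested (6.53% of all 7997 genes tested were called for such a difference, limma interaction term). Of these 5, Cyp4p2, Cyp4p1, Cyp6w1 and Cyp317a1 reached a mean of 1 FPKM only through the depleted libraries of 1 system, so the filter itself favoured a difference for them, and the count is not to be read against that share. Only Cyp6d2 passed in both groups of a system. The difference, neuroblast change minus S2 change in log2 units, was 4.52 for Cyp4p2 (limma adjusted p 9.0e-07), 3.23 for Cyp4p1 (1.2e-04), -4.88 for Cyp6d2 (8.6e-06), -2.18 for Cyp6w1 (0.028) and -0.80 for Cyp317a1 (0.025). Cyp6d2 was at 0 FPKM in both neuroblast controls and at 0.09 and 0.11 after RNAi, where 8 fragments stood behind each value, and Cyp6w1 was listed at 0 in all 4 neuroblast libraries. The calls of Cyp6w1 and Cyp317a1 were lost without any 1 of the 4 neuroblast libraries and without S2 control replicate 1 or 2, with limma adjusted p from 0.056 to 0.12 and from 0.052 to 0.095, and with quantile normalisation (0.17 and 0.59). Cyp12a4, higher after RNAi in neuroblasts and with a negative value in S2 cells, had a difference of 2.28 that missed the threshold (limma adjusted p 0.18). The interaction fit had 1 spread for both systems and no block, and the S2 control pairs of this gene stood at 1.47 and 7.86 FPKM. With the replicate block its S2 log2 fold change of -0.83 was called (limma adjusted p 0.0068). The missed threshold therefore does not show that its 2 changes were alike. Cyp12c1 and Cyp6d4 were the 2 members called in both systems, higher in each. The systems differed in library kit, so levels were not tested between them.

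**Figure D5:**
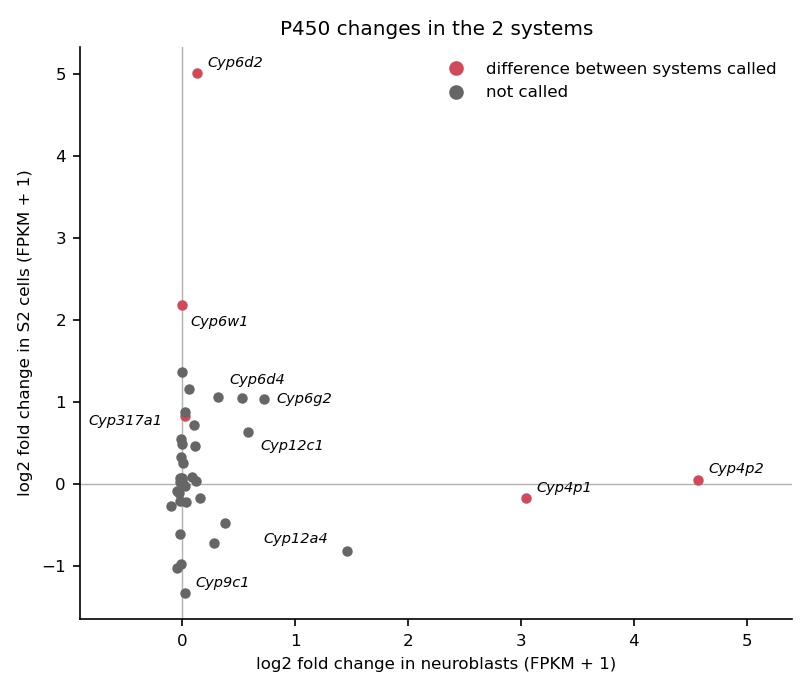
Log2 fold change of FPKM + 1 in neuroblasts (horizontal) against that in S2 cells (vertical) for the 38 P450 genes tested for a difference; red points were called different. Values are from fits with no filter on level, and genes listed at 0 in all 4 neuroblast libraries, such as Cyp6w1, are drawn at 0. Cyp4p2 and Cyp4p1 lie along the horizontal axis and Cyp6d2 and Cyp6w1 along the vertical one.

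Of 7 tested electron donors of P450 enzymes 2 rose in neuroblasts, dare (log2 fold change 0.34) and the ferredoxin Fdxh (0.28), and 2 fell, CG5946 (-0.49) and Cyt-b5 (-0.30). Cpr, the main reductase, was at 15.3 and 15.7 FPKM in the 2 groups. In S2 cells none of 7 was called; Cpr was at 126 ± 18.1 FPKM in controls and 99.6 ± 9.65 after depletion (SD, n = 4; limma adjusted p 0.092). Of 9 heme genes, 2 rose in neuroblasts (Pbgs 0.63 and Alas, the first enzyme of heme synthesis, 0.39) and 1 fell (Coprox -0.31). In S2 cells none rose and 3 fell, among them Coprox (-1.17) and Alas (-0.75). The median there was -0.38 for the list and -0.06 for all tested genes. Of all tested genes 42.9% were called in neuroblasts (19.1% higher) and 26.7% in S2 cells (15.2% lower). The counts of the donors and heme genes were not tested against those shares.

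Genes of the later steps of detoxification were read beside them; as given above, 19.1% of all tested genes were called higher in neuroblasts and 11.5% in S2 cells. Of the UDP-glucuronosyltransferases, which attach sugars to lipophilic compounds, both tested genes rose in neuroblasts (Ugt86Di 2.35 and Ugt86Da 1.40 in log2 fold change). Ugt86Di rose from 0.05 ± 0.01 to 4.50 ± 1.76 FPKM and Ugt86Da from 0.13 ± 0.01 to 2.07 ± 0.98 (SD, n = 2). Both reached the mean of 1 FPKM only through the RNAi libraries and so had to differ. A neuroblast transporter passed in the same way, as did Ugt86Di (0.55 to 5.32 FPKM) and Ugt36Bc (0.87 to 2.07) in S2 cells. In S2 cells 3 of 7 rose (Ugt86Di 2.03, Ugt86Da 1.54 and Ugt35a 1.43) and Ugt58Fa fell (-1.85). Of the ABC transporters, which export compounds, 5 of 6 tested rose in neuroblasts, led by Mdr49 (2.76), with CG5789 at 1.63 and CG11897 at 1.33, and 3 of 5 in S2 cells, Mdr49 (1.45), MRP (1.29) and CG7627 (0.78). Of the carboxylesterases and epoxide hydrolases, 1 of 4 rose in neuroblasts (clt 0.45) and 1 of 9 fell in S2 cells (alpha-Est1 -0.75). Median log2 fold changes were 1.87 for the UDP-glucuronosyltransferases and 1.48 for the transporters in neuroblasts, and 0.64 and 1.14 in S2 cells, against -0.02 and -0.06 over all tested genes. For the carboxylesterases and epoxide hydrolases they were 0.12 and -0.19. Because the filter favoured a rise, counts and medians of the UDP-glucuronosyltransferases and the neuroblast transporters are not to be read against those of all genes.

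Among 11 tested regulators of xenobiotic and stress responses, cnc (0.25) and maf-S (0.18), partners in the antioxidant and detoxification response, rose in neuroblasts and foxo fell (-0.71); none of 11 was called in S2 cells. Of the other genes of ecdysteroid synthesis, export and response, none of 6 was called in neuroblasts and 2 of 7 rose in S2 cells, Eip74EF (0.81) and EcR (0.70). Counts of these 2 lists were not tested against the shares of all genes called, 42.9% in neuroblasts and 26.7% in S2 cells. Genes used above as markers of other cells moved in S2 cells too. S2 cells are a cultured line, so these values do not show that such cells were present. Of the midgut list Jon99Ci and Npc2f rose, the sum going from between 0.77 and 1.37 FPKM to between 4.50 and 8.08 with Jon65Aiv and betaTry at 0. Of the Malpighian tubule list Uro rose and Irk3 fell, the sum going from between 16.2 and 35.7 FPKM to between 7.48 and 26.0 with byn at 0. Jon99Ci (0.17 to 3.46 FPKM), Npc2f (0.82 to 2.69) and Uro (0.90 to 8.24) reached a mean of 1 FPKM only through the depleted libraries. Of the hemocyte list He rose, and the sum went from between 320 and 423 FPKM to between 454 and 497. Means of Hml (3.24 to 2.18 FPKM) and Pxn (4.97 to 2.20) were lower and those of srp and crq higher, none of them called. Of the neuroblast list insc, the only one tested, rose from 1.80 to 22.8 FPKM. Of the oenocyte list desat1, the only marker tested, fell (-0.56, limma adjusted p 0.016). The list summed to between 796 and 902 FPKM in controls and between 506 and 668 after depletion, nearly all of it desat1. CG17374, the other gene of that list, was low with a higher mean after depletion (0.02 and 0.17 FPKM). None of the 3 tested glial, 2 neuron and 1 fat body markers was called. A link of these marker genes to the P450 changes, that of Cyp4g1 included, was not tested.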

How the data were processed

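Polyadenylated RNA was sequenced in 12 libraries. The authors deposited FPKM per gene and library with confidence bounds, in Cufflinks gene tables; the submitters' processing notes list DESeq and HTSeq without a version, Cufflinks 1.3.0, TopHat 1.4.1 and BWA 0.6.1. The sources used here give no aligner settings, strand setting, build or annotation. The authors also deposited comparison tables that hold group mean signal (counts over size factors), a ratio of means, the log2 of that ratio, and raw and adjusted p-value columns per gene; these have no values per library and are named as the authors' where used. Starts in the tables differ from release 6 of the genome (commonest offset 4112495 bases on arm 2R), so release 6 served only for intron counts, found for 80 of the 81 members (not Cyp6a21). No column of other samples was present (0 columns).

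Each system had its own fit with limma 3.58.1 (limma-trend, R 4.3.3) on log2(FPKM + 1), restricted to genes that averaged 1 FPKM or more in that system, two-sided, with Benjamini-Hochberg adjustment over all genes tested and calls at an adjusted p under 0.05. Genes that Cufflinks marked as failed or low-data in a library were left out (47 in neuroblasts, 41 in S2 cells, no P450 gene), a choice made after seeing the data. The difference between systems was an interaction term in 1 fit over the 4 groups, with 1 spread per gene for both systems and no block. Scripts were tested on simulated data. Implied fragments were taken as the squared ratio of 2 times FPKM to the upper half-width of its interval; for genes of 1 transcript under 200 fragments, 91.6% to 92.3% lay within 0.02 of a whole number. They cover counting error only, and the depth they give ran from 14.6 to 48.7 M (M stands for 1000000).

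Clans were assigned by P450 family number. The members and gene lists were chosen with earlier results of these data known. Genes given library by library were those called with an absolute log2 fold change of at least 1 and the 5 highest in the controls of each system; from the other lists usually up to 3 called genes per direction and system were named (2 genes that this takes are not reported here), and genes added for their role, position or overlap were chosen after their values were seen. The labels do not say that replicates were separate cultures or cohorts, so p-values reflect only how these libraries spread, possibly for technical reasons. Same-numbered S2 libraries deviated together over all tested genes (r from 0.45 to 0.59). Libraries of unlike number but the same first number did so about as much (r from 0.33 to 0.62). Pairing by replicate number thus cannot be told apart from a shared first number. The main fits had no block, and either number was a block only in the alternatives. In neuroblasts r was 0.067 for same-numbered libraries, and the numbers were not taken to pair. Alternatives were a pseudocount of 0.1, no filter on level, rescaling to TPM, quantile normalisation, each library left out, the replicate or first number as a block, 1 fit over all groups, each pair of S2 replicates alone, and the authors' tables.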

Additional observations from a re-analysis of the deposited data

Results flagged for a closer look

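In 3 of 72 groups of 4 S2 libraries scanned, 1 library stood apart from the other 3 by Dixon's 95% criterion, which chance meets in about 1 of 20 groups; all 3 were control replicate 4. Cyp6u1 was lowest there at 13.8 FPKM (the other 3 at 18.9 to 19.9), Cyp4e2 highest at 19.3 FPKM (14.66 to 14.75), and Cyp6g2 highest at 2.46 FPKM (1.54 to 1.64). For 5 members the change differed between the systems by the interaction test (limma). The neuroblast minus S2 log2 fold change was 4.52 for Cyp4p2, 3.23 for Cyp4p1, -4.88 for Cyp6d2, -2.18 for Cyp6w1 and -0.80 for Cyp317a1.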

How the results depend on the processing

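The count in neuroblasts (6 of 8) was 2, Cyp4p2 and Cyp4p1, in 1 fit over all 4 groups, and between 4 and 6 with a library left out; the replicate block called 5 and quantile normalisation 4. In S2 cells the count (13 of 36) was 20 with the replicate block, 20 with the first number as a block, 25 within replicates 1 and 2, and between 8 (without control replicate 2) and 15 (without depleted replicate 3 or 4) with a library left out. The number of members that differed between systems (5 of 38) was between 3 and 7 with a library left out. Over all genes, rescaling to TPM moved the median log2 fold change from -0.02 to 0.08 in neuroblasts and from -0.06 to 0.06 in S2 cells, and the calls from 1283 higher and 1605 lower to 2099 and 1043 in neuroblasts, and from 876 and 1154 to 999 and 827 in S2 cells; the members' calls were then 9 of 12, all higher, and 12 higher and 3 lower of 41. Quantile normalisation split the members' S2 calls 7 higher and 4 lower (10 and 3 as designed) and the differences 4 higher and 1 lower (2 and 3). No filter on level gave 8, 18 and 7 calls. The authors' deposited tables called 6 of the 8 and 11 of the 36. In S2 cells they did not call Cyp12b2, Cyp4d14, Cyp12c1 and Cyp6a13 (the authors' DESeq adjusted p 0.15, 0.13, 0.075 and 0.051). They did call Cyp9c1 (1.3e-04) and Cyp12d1-d (6.6e-07), which missed the threshold as designed. Keeping the genes marked failed or low-data, added after seeing the data, gave 5, 13 and 5.

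By gene, 81 of 96 values under another setting in neuroblasts kept their direction and side of the threshold, as did 70 of 85 differences; in S2 cells (members called with or without the block) 29 of 380 lost and 36 gained a call. None of these values changed direction. Of the 16 S2 members called neither way, 13 changed sign under at least 1 of 18 settings and 5 were called under at least 1. Under every setting run, Cyp4p2 and Cyp4p1 were called in neuroblasts and as a difference between systems, Cyp6d2 in S2 cells and as a difference, and Cyp6w1, Cyp6a20, Cyp6d4, Cyp6g2 and Cyp6a22 in S2 cells. The cause was not tested. Depth limits members near 1 FPKM, whose calls rest on few fragments.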
